A study of Homo sapiens with 4 samples.

Results

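NKX2-1, NKX2-8, PAX9, SOX2, SOX9, TP63, FOXA1, FOXA2 and GATA6 are transcription factor genes that set cell identity in the lung. They were picked by symbol, 9 of the 48162 genes in a table of read counts from NCI-H1703, an established human non-small cell lung cancer line. Messenger RNA was sequenced from cells with the pCDNA vector (2 libraries, A and B) and from cells stably overexpressing EGFR-AS1 (2 libraries, A and B), a long noncoding RNA transcribed opposite to the gene of the EGF receptor. Both groups grew in RPMI medium with 10% serum under 100 µg/ml hygromycin. Whether the stable cells are 1 clone or a pool, and whether a group's libraries are independent cultures, is not given in the sources used here, so p-values measure only the spread between these libraries. The question was how transcripts differ when EGFR-AS1 is raised.

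NKX2-1 is the founding factor of lung and thyroid endoderm. In alveolar and club cells it switches on the surfactant and secretoglobin genes, and it is an amplified survival gene of many lung adenocarcinomas. SOX2 and TP63 maintain the basal cells of the airway and are amplified together in squamous lung cancer. SOX9 marks the tips of the growing airway tree, the pioneer factors FOXA1 and FOXA2 open chromatin at lung genes together with NKX2-1, and GATA6 acts in the branching epithelium. PAX9 belongs to the pharynx and its pouches. It lies beside NKX2-1 and NKX2-8 on chromosome 14, and FOXA1 follows a few genes further on.

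The libraries held 32601449 to 41518275 counted reads, and 16106 genes passed a filter on low counts. EGFR-AS1 had 59 and 37 reads in vector and 670 and 586 with overexpression (log2 fold change 3.86, SE 0.22, edgeR adjusted p = 5.62e-09). Of all tested genes, 2332 were called (14.5%), 7.8% higher and 6.67% lower, at an adjusted p under 0.05 in edgeR's quasi-likelihood test. The count was 3522 without vector A, 1299 without overexpression A and 1271 without overexpression B. For 55.5% of tested genes every library of one group was above those of the other. Overexpression A stood apart in traces of genes of other cell types. The 20 squamous genes under the filter on low counts summed to 114 reads there and to 5 to 9 in each other library, and 4 fibroblast and smooth muscle genes under the filter summed to 97 reads there and to 7 to 13 elsewhere. Values without that library are therefore given for the 6 tested factors below.

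Epithelial markers other than KRT18 were sparse in both groups. EPCAM and CDH1, the genes of the epithelial adhesion molecule and of E-cadherin, had 2 to 8 reads in any library. The 10 markers summed to 75.3 and 90.2 CPM (read counts scaled to library size with TMM factors) in vector and to 39.9 and 32.8 with overexpression. Most of each sum was KRT18, at 68.0 and 82.5 CPM in vector and 33.8 and 28.2 with overexpression. Of the 5 tested, the simple keratin genes KRT18 (log2 fold change -1.28, SE 0.14) and KRT8 (-1.09, SE 0.25) fell and the claudin gene CLDN7 rose (1.75, SE 0.40; 2.51 without vector A). The KRT8 call was lost without overexpression B (adjusted p = 0.128). Of 8 fibroblast and smooth muscle markers 4 were tested and the actin gene ACTA2 (1.86, SE 0.26) and the collagen gene COL3A1 (1.62, SE 0.46) rose. The other 2 tested did not pass in edgeR. They were COL1A1 (0.68, SE 0.23, adjusted p = 0.0595) and TAGLN, which pointed down (-0.49, SE 0.24, adjusted p = 0.209). The COL3A1 value was 2.22 without vector B, and its call was lost with DESeq2 and without vector A or overexpression A (adjusted p = 0.112, 0.101 and 0.306). All 8 markers together summed to 17.0 and 12.7 CPM in vector and to 28.7 and 22.4 with overexpression. Without overexpression A, 1 of the 8 was called. The part of these cell type markers in the results below was not tested. Immune markers summed to at most 0.825 CPM and endothelial markers to at most 0.393 CPM in any library. PDGFRA and FGFR1, receptor genes known to be amplified in NCI-H1703, moved in opposite directions. PDGFRA fell from 766 ± 122 to 514 ± 66.3 CPM (edgeR adjusted p = 0.00909) and FGFR1 rose from 697 ± 121 to 1440 ± 104 CPM (6.15e-05). The PDGFRA call was lost without overexpression A (adjusted p = 0.242).

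NKX2-1 and SOX2 rose, PAX9 and FOXA1 fell, and the remaining factors did not pass or had too few reads to test. The upstream sequence of these 4 genes is shown because their transcripts carry the differences that passed the test, and 3 of them share a short stretch of chromosome 14. Each stretch is the part of the 250 bases before a RefSeq transcription start (GRCh38.p14) that lies outside the exons annotated for that gene, read 5′ to 3′ on the gene's strand. Capitals mark matches to AACAAT, a core motif of SOX factors, on either strand.
NKX2-1, chr14:36520287-36520482, minus strand: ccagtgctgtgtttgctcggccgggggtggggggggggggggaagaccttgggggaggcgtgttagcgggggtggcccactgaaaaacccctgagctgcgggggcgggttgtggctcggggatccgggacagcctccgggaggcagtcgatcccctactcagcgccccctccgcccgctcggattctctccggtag
PAX9, chr14:36657318-36657567, plus strand: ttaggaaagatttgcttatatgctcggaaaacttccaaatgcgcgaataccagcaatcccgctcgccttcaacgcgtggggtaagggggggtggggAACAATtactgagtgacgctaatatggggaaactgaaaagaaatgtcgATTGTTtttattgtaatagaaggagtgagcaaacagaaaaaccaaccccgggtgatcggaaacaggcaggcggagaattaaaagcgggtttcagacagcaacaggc
FOXA1, chr14:37595349-37595499, minus strand: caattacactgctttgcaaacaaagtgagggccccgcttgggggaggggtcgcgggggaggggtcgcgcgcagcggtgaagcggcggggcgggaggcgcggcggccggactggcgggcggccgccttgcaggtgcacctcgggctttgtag
SOX2, chr3:181711675-181711923, plus strand: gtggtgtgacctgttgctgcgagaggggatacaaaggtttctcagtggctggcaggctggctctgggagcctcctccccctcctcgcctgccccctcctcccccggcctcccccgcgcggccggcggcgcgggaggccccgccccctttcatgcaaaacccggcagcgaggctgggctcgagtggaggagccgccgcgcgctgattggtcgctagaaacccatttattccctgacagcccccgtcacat

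Over the whole 250 bases, the window of SOX2 had a GC content of 68.8% with 20 CpG sites. That of FOXA1 had 67.2% with 26, and the window before the first RefSeq start of NKX2-1 had 70.8% with 18. The window before the first RefSeq start of PAX9 had 46.8% with 13 CpG sites. Windows before the second RefSeq starts had 49.6% with 7 for NKX2-1 and 54.8% with 11 for PAX9. The medians were 58% and 11 over 35116 RefSeq windows of the same length. Of those windows, 8.98% hold AACAAT on either strand. The window before the first PAX9 start holds it at 154 to 149 bases before the start on the gene's strand. It also holds it at 106 to 101 bases on the other strand. The window before the second RefSeq start of NKX2-1 holds TGTTTAC, a FOXA motif found in 2.98% of windows, 130 to 124 bases before that start. On the other strand it also holds AGATAA, the core motif of GATA factors, which 9.17% of windows hold. The window of NKX2-8 holds 1 match each to the SOX and GATA motifs. The NKX2-class motif TNAAGTG, found in 8.73% of windows, was in none of the windows of the 7 factors that have one. The counts are per gene, so transcripts from different starts cannot be told apart.

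**Figure D1:**
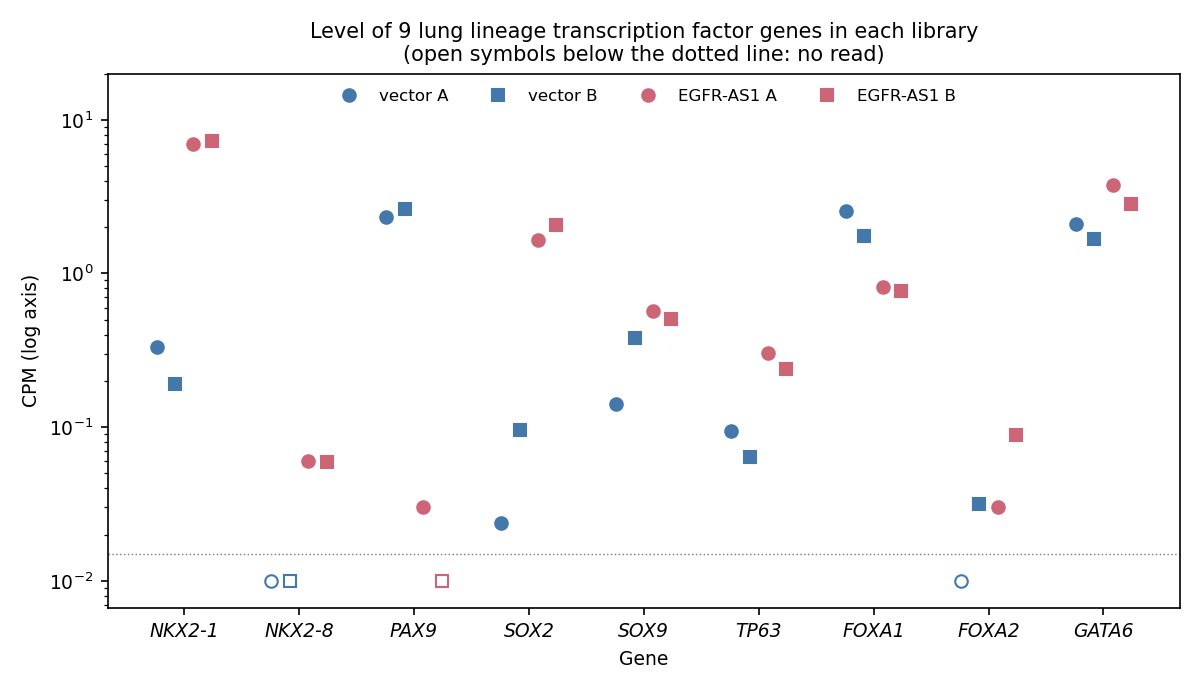
CPM of the 9 factor genes in each library on a log axis, with vector in blue and overexpression in red, circles for A and squares for B, and open symbols below the dotted line for no read. NKX2-1 and SOX2 lie higher in both overexpression libraries, PAX9 and FOXA1 lie lower, and NKX2-8 and FOXA2 stay below 0.1 CPM throughout.

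NKX2-1, the alveolar lineage factor, was counted at 14 reads in vector A, 6 in vector B, 230 in overexpression A and 246 in overexpression B. Both overexpression libraries lay far above both vector libraries. Its level went from 0.260 ± 0.0989 to 7.13 ± 0.253 CPM (SD, n = 2 each), and the edgeR log2 fold change was 4.71 ± 0.32 (SE; adjusted p = 5.72e-08). Of the tested genes, 62 (0.385%) had a log2 fold change of at least this size in either direction. Without overexpression A it was 4.75. In bulk RNA a larger share of cells with the transcript and more transcript per cell cannot be told apart.

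The opposite-strand transcript NKX2-1-AS1 had no read in vector and 4 and 7 with overexpression, at least 2.03-fold higher against 3 reads in each vector library. It did not pass the filter on low counts. Of its exonic bases, 22.6% lie under NKX2-1 exons. The strand setting of the counting is not given in the sources used here, so reads of the pair cannot be told apart. SFTA3, whose start lies between those of the genes MBIP and NKX2-1, had no read in any library.

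NKX2-8, a close relative of NKX2-1 and its neighbour, had no read in vector and 2 reads in each overexpression library. Both groups were at or below 3 reads in each library, equal to 0.0708 to 0.0952 CPM, so no fold is given. At this depth a level above that floor was not detected in any library.

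PAX9, the pharyngeal pouch factor, had 99 and 83 reads in vector A and B and 1 and 0 with overexpression. The 2 groups were widely separated and the overexpression libraries were close to empty. It fell from 2.48 ± 0.211 to 0.0151 ± 0.0214 CPM. The ratio of summed reads was 164-fold lower (exact 95% Clopper-Pearson interval 29.2 to 6530, counting error only; edgeR adjusted p = 1.45e-06). The last read was in overexpression A, so without that library no read was left. Without overexpression B the fitted log2 fold change was -6.21, beside -7.07 with all libraries. By annotation 7.97% of PAX9 exonic bases lie under exons of SLC25A21, on the opposite strand.

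FOXA1, the pioneer factor further along the same chromosome, had 108 and 55 reads in vector and 27 and 26 with overexpression. The vector libraries differed from each other but both lay above the overexpression libraries. It fell from 2.15 ± 0.568 to 0.794 ± 0.0307 CPM, with an edgeR log2 fold change at -1.44 ± 0.34 (SE; adjusted p = 0.00843). The call was lost without overexpression B (-1.40, adjusted p = 0.0697) and held without overexpression A (-1.49, adjusted p = 0.0436).

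Coding genes before and after NKX2-1 on chromosome 14 differed. The split at NKX2-1 was chosen, so where along this stretch the values change was not tested. The 15 tested coding genes before NKX2-1 in chromosome order, SPTSSA to MBIP, had a median log2 fold change of 0.13. They ranged from -0.49 to 0.38, and none was called. The 17 genes after NKX2-1 up to RPS29, the factors left out, had a median of -0.75, ranging from -1.22 to -0.46. All 17 were below 0, and 12 were called lower. The median after NKX2-1 was -0.90 without overexpression B. Over all tested genes the median was 0.00, and 6.67% were called lower.

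Among the tested coding genes MBIP, which encodes a MAP kinase pathway inhibitor, lay directly before NKX2-1. It had 621 and 468 reads in vector and 548 and 531 with overexpression (log2 fold change 0.13, SE 0.16, edgeR adjusted p = 0.648). Further out RALGAPA1 (0.12), BRMS1L (0.06) and the NF-kB inhibitor gene NFKBIA (-0.08) did not pass. On the other side SLC25A21, a mitochondrial carrier gene next to PAX9, had 50 and 40 reads against 25 and 25 (-0.70, SE 0.35, edgeR adjusted p = 0.219). MIPOL1, which lies between SLC25A21 and FOXA1, was at -0.53 ± 0.20 (SE; edgeR adjusted p = 0.0922). Beyond FOXA1 the COPII coat gene SEC23A (-0.69, SE 0.12), the SMN complex gene GEMIN2 (-0.84, SE 0.19), TRAPPC6B (-0.84, SE 0.17) and the splicing-associated gene PNN (-0.75, SE 0.12) fell. The calls of GEMIN2 and TRAPPC6B were lost without overexpression A (adjusted p = 0.0893 and 0.0563).

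Set against these neighbours, NKX2-1 was the gene of the window furthest above 0 and PAX9 the one furthest below. FOXA1, at -1.44, was below the lowest of the 17 non-factor genes after NKX2-1, which was MIA2 at -1.22 (SE 0.40); these lie within their standard errors of each other. Genes around PAX9 differed by less than 1 on the log2 scale in 15 of these 17 cases, the exceptions being MIA2 and LRR1 (-1.02). The table gives counts per gene and holds no copy number.

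**Figure D2:**
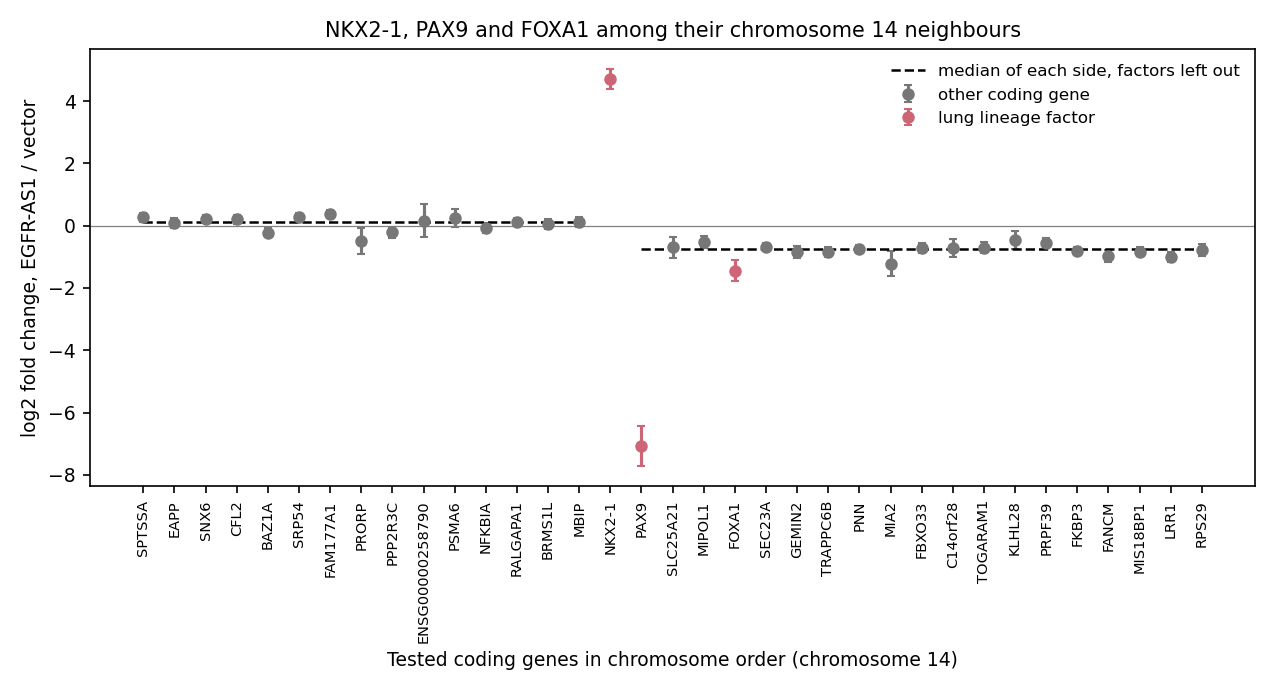
Log2 fold change (overexpression over vector, ± SE) of tested coding genes in their order on chromosome 14, with the lung lineage factors in red and the medians of the genes on each side as dashed lines. Genes before NKX2-1 sit around 0.13, those after it around -0.75, and NKX2-1 at 4.71 and PAX9 at -7.07 stand away from both.

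SOX2, the basal cell and stem cell factor, had 1 and 3 reads in vector and 55 and 70 with overexpression. The overexpression libraries were both well above vector, where the gene was nearly silent. It rose from 0.0594 ± 0.0506 to 1.87 ± 0.295 CPM, and the ratio of summed reads was 34.6-fold (exact 95% Clopper-Pearson interval 13.2 to 129, counting error only; edgeR adjusted p = 1.46e-05). With so few vector reads the fitted log2 fold change of 5.01 moved to 4.24 without vector A and to 6.11 without vector B. Without overexpression A, the library that holds the traces of squamous genes, it was 5.15. The part of those traces in the SOX2 values was not tested. SOX2-OT, the long noncoding RNA gene in which SOX2 lies, had 2 and 0 reads in vector and 2 and 4 with overexpression.

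Genes flanking SOX2 on chromosome 3 did not share its size of change. The 20 nearest tested coding genes had a median log2 fold change of 0.03, ranging from -0.73 to 0.52, with 1 called lower and none higher. DNAJC19 and ATP11B, the nearest on each side, had log2 fold changes of -0.01 (SE 0.15, edgeR adjusted p = 0.965) and 0.32 (SE 0.12, edgeR adjusted p = 0.0909).

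TP63, the master factor of basal and squamous cells, had 4 and 2 reads in vector and 10 and 8 with overexpression. Both overexpression libraries were above vector, but the gene was under the filter on low counts and has no test in the reported fit. The ratio of summed reads was 3.32-fold (exact 95% Clopper-Pearson interval 1.26 to 10.2, counting error only). In a fit without the filter its edgeR adjusted p was 0.271. The 20 nearest tested coding genes on chromosome 3 had a median log2 fold change of 0.16, with 4 called higher and none lower. Of these neighbours P3H2 (0.24, edgeR adjusted p = 0.205) and LPP (0.06, edgeR adjusted p = 0.778) did not pass. The claudin gene CLDN1 rose 1.72-fold (edgeR adjusted p = 0.00066). TPRG1 rose from 6 and 5 to 21 and 26 reads (log2 fold change 2.21, SE 0.51, edgeR adjusted p = 0.0077), a call lost with DESeq2 (adjusted p = 0.0749) and without overexpression A (0.0517) or B (0.135).

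SOX9, the distal tip factor, had 6 and 12 reads in vector and 19 and 17 with overexpression. The groups did not overlap, but vector B lay nearer to overexpression than vector A did. At 1.10 ± 0.54 (SE) on the log2 scale it missed the threshold in edgeR (adjusted p = 0.201). It was 1.90 without vector B, 0.49 without vector A and 0.99 without overexpression A (adjusted p = 0.608).

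GATA6, the endodermal zinc finger factor, had 89 and 53 reads in vector and 124 and 95 with overexpression. In CPM the levels were 2.10 and 1.68 against 3.75 and 2.82, so the groups did not overlap. At 0.79 ± 0.27 (SE) on the log2 scale it missed the threshold in edgeR (adjusted p = 0.0694). It passed without vector A (0.96, adjusted p = 0.0106) and without the filter on low counts (0.77, adjusted p = 0.0391), and without overexpression A it was 0.56 (adjusted p = 0.527). GATA6-AS1, its opposite-strand neighbour, had 1 and 0 reads in vector and 9 and 0 with overexpression, all 9 in overexpression A. The 20 nearest tested coding genes on chromosome 18 had a median log2 fold change of -0.11, ranging from -0.87 to 1.69, with 4 called higher and 2 lower.

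FOXA2, which shares the forkhead domain with FOXA1, had 0 and 1 reads in vector and 1 and 3 with overexpression. The groups overlapped and all libraries were at or below 3 reads. On the same stretch of chromosome 20, NKX2-4, a relative of NKX2-1, rose from 1.57 ± 0.155 to 3.07 ± 0.863 CPM (log2 fold change 0.97, SE 0.29, edgeR adjusted p = 0.035). That call was lost with DESeq2, limma-voom, library totals and without overexpression A (adjusted p = 0.0857, 0.0505, 0.0524 and 0.476). NKX2-2 beside it was at 0.53 ± 0.24 (SE) on the log2 scale (edgeR adjusted p = 0.171).

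The order of the factors by level changed between groups. Per kilobase of exon, vector cells had most FOXA1 (0.640 and 0.438 CPM per kb), GATA6 (0.532 and 0.426) and PAX9 (0.387 and 0.436). GATA6 overlapped with both others and did not differ from them beyond the spread, while the lower FOXA1 value lay just above the higher PAX9 value. NKX2-1 (0.104 and 0.0602) and SOX9 (0.0360 and 0.0968) followed and overlapped too. With overexpression NKX2-1 led at 2.25 ± 0.0800 CPM per kb, above all other factors in both libraries. GATA6 (0.949 and 0.715) and SOX2 (0.661 and 0.827) overlapped each other, FOXA1 was next at 0.205 and 0.194, and SOX9 at 0.146 and 0.128. TP63, NKX2-8, FOXA2 and PAX9 were all below 0.05. The median of tested genes was 3.87 to 4.09 CPM per kb in a library, so every factor was below the median gene in both groups.

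**Figure D3:**
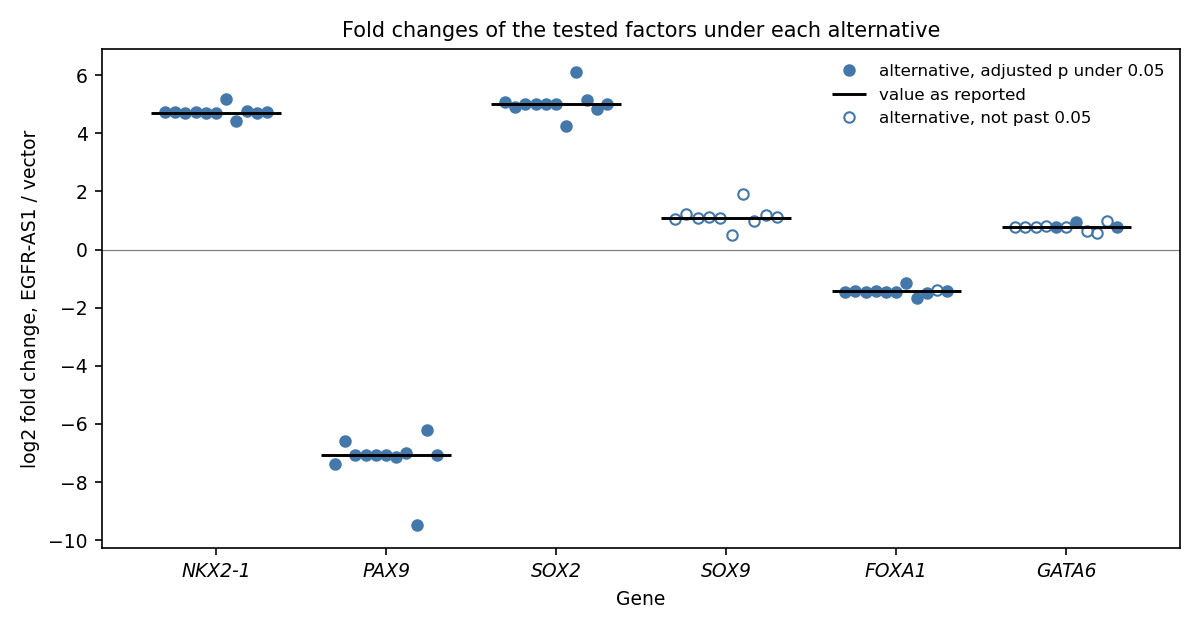
Log2 fold change (overexpression over vector) of the 6 factors that were tested, with the reported value as a black line and each alternative fit as a circle, filled where the adjusted p was under 0.05. NKX2-1, PAX9 and SOX2 passed in every alternative run, FOXA1 in 10 of 11, GATA6 in 3 of 11 and SOX9 in 0 of 10; the lowest PAX9 value is a fit with no read left in overexpression.

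A list of alveolar and club cell genes, known NKX2-1 targets and lung adenocarcinoma markers did not move with NKX2-1 as a whole. Of its 25 genes 8 were tested, 2 fell, none rose and 6 did not pass, with a median log2 fold change of -0.26. Beside this and the following lists, 7.8% of all tested genes were called higher and 6.67% lower. In this list the genes that fell were the ERK phosphatase gene DUSP6 (-1.75, SE 0.24) and the lysosomal gene LAMP3 (-0.73, SE 0.15). The surfactant gene SFTPC and the secretoglobin genes SCGB1A1 and SCGB3A2 had no read in any library, and SFTPB had 0, 0, 0 and 2. NAPSA, the napsin gene used as an adenocarcinoma marker, was at 0.505 ± 0.220 and 0.957 ± 0.200 CPM, which is 0.88 ± 0.43 (SE) on the log2 scale in edgeR (adjusted p = 0.196).

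Of 35 squamous and basal genes 15 were tested, 2 rose, 4 fell and 9 did not pass (median 0.05). BNC1, a basal keratinocyte zinc finger factor, had no read in vector and 25 and 36 with overexpression, at least 11.2-fold higher against 3 reads in each vector library (edgeR adjusted p = 8.22e-05). The stratifin gene SFN rose 3.57-fold (edgeR adjusted p = 0.00428), a call lost without overexpression A (adjusted p = 0.135). NECTIN1 (-0.56), the receptor genes FGFR3 (-0.85) and NGFR (-0.94) and the Notch ligand gene JAG2 (-0.46) fell. The calls of NECTIN1 and JAG2 were lost without overexpression B (adjusted p = 0.0991 and 0.346). That of NGFR was lost without overexpression B, without vector A and with library totals (0.191, 0.25 and 0.0799). The defining keratins KRT5, KRT6A and KRT14 were found almost only in overexpression A, with 19, 13 and 9 reads there against at most 1 in each other library. Summed over the list, squamous genes were at 1060 and 1260 CPM in vector and 949 and 964 with overexpression. Most of each sum came from ITGA6 and DSP, which did not pass. ITGA6 was at 404 and 646 CPM in vector and 365 and 388 with overexpression. DSP was at 242 and 243 CPM in vector and 240 and 258 with overexpression.

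Of 21 neuroendocrine genes 8 were tested, 3 rose, none fell and 5 did not pass, with a median of 0.43. The other 13 were under the filter on low counts, 6 of them without a read. These 13 summed to 25 and 9 reads in vector and to 10 and 9 with overexpression. The synaptotagmin gene SYT1 rose 5.85-fold to 34.4 ± 0.348 CPM and the enolase gene ENO2 2.50-fold to 6.23 ± 0.880 CPM. For ENO2 the log2 value was 1.32 with all libraries and 2.0 when vector A was left out. The granule and synapse genes CHGB (-0.33, SE 0.20) and SYP (-0.05, SE 0.20) did not pass. All 3 calls held without overexpression A.

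Of 26 liver and gut genes that FOXA and GATA factors act on, 25 had a count and 4 were tested. The nuclear receptor gene HNF4G (3.61-fold to 2.55 ± 0.0541 CPM) and the zinc finger factor gene GATA4 (3.81-fold to 2.34 ± 0.621 CPM) rose, and the other 2 did not pass. Of 22 distal tip and SOX9 target genes 8 were tested. The chaperone gene CLU rose 1.99-fold, the ETS factor gene ETV5 (-0.83) and the cartilage collagen gene COL11A2 (-1.32) fell, and the median was -0.27. The COL11A2 call was lost with DESeq2 (adjusted p = 0.127), and its log2 fold change was -0.65 without vector A.

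Of 52 other transcription factors of lung development 32 were tested, 2 rose, 8 fell and 22 did not pass (median -0.31; -0.19 without vector A). SIX4, a homeobox gene of chromosome 14, fell by 1.17 on the log2 scale (SE 0.16). The Hedgehog effector gene GLI2 fell by 1.18 (SE 0.20) and ETV4 by 0.98 (SE 0.18). RUNX1 rose 1.72-fold and KLF5 1.66-fold; the KLF5 call was lost without overexpression A or B (adjusted p = 0.0781 and 0.279). Without overexpression A, 1 gene of the list was called higher and 6 lower.

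Among 36 cofactors and paralogs of the factors, 25 were tested, 2 rose and 4 fell, and the median was -0.20. Those that rose were GATA4 and NKX2-4. PAX8 (-1.39, SE 0.24), PAX6 (-1.98, SE 0.38), GATA2 (-0.60, SE 0.13) and SOX1 (-2.11, SE 0.51) fell. Without overexpression A the calls were 1 higher and 2 lower, with GATA2 (adjusted p = 0.0533) and SOX1 (0.168) lost, and SOX1 was at -2.98 without overexpression B. Of the other PAX genes tested, PAX1 (-0.20), PAX2 (0.11) and PAX5 (0.79) did not pass.

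**Figure D4:**
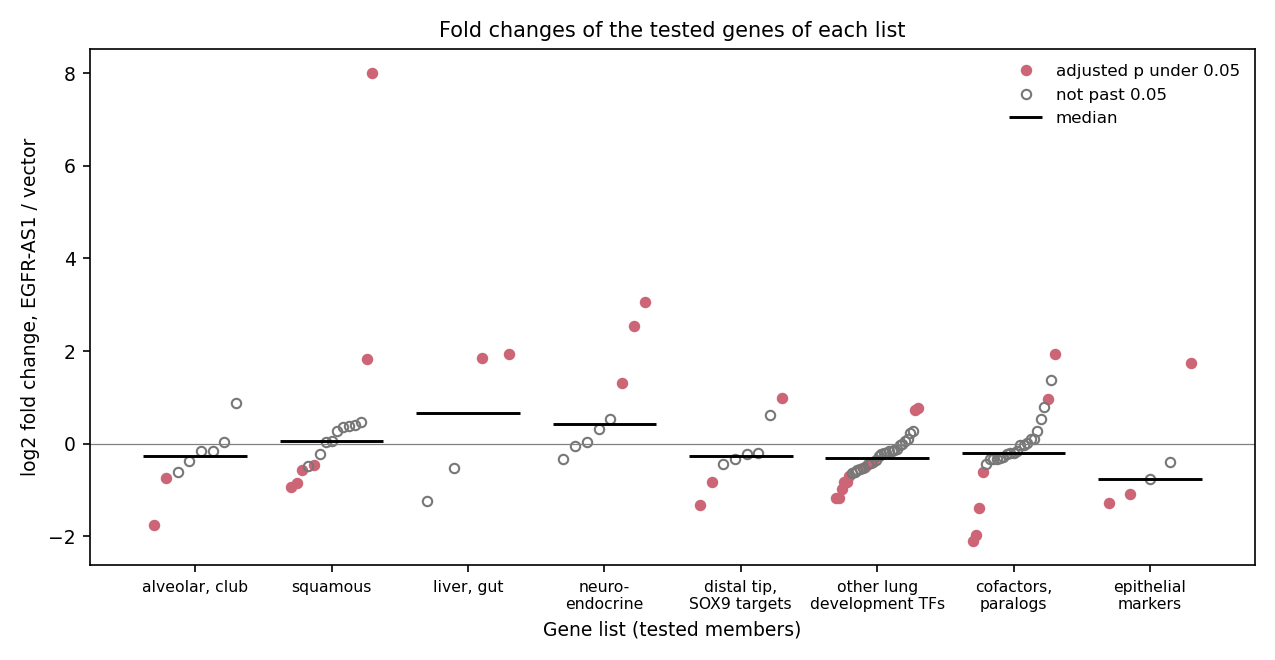
Log2 fold change (overexpression over vector) of the tested genes of 8 lists, filled red where the adjusted p was under 0.05 and open grey otherwise, with each list's median as a black line. Medians lie between -0.76 for epithelial markers and 0.66 for liver and gut genes; the squamous point near 8 is BNC1, whose fitted value rests on no read in vector and is no measure of fold.

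Genes whose centred log2 levels over the 4 libraries lay nearest to each factor were listed by Euclidean distance among genes of at least 1 CPM on average. For NKX2-1 they were RNF212 (distance 0.20), the homeobox gene ZFHX4 (0.22) and the dystrophin gene DMD (0.33). For SOX2 they were CLEC2B (0.27), the interleukin receptor gene IL7R (0.41) and the adaptor gene AP1M2 (0.51). For PAX9 the nearest included ERN2 (1.12) and CCL2 (1.15), each farther off than any of the 3 nearest genes of the other 5 tested factors. FOXA1 lay closest to TM6SF1 (0.03), GLIS2 (0.12) and PAX8 (0.14). These distances rest on 4 libraries in 2 groups and are descriptions.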

How the data were processed

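Per the labels' protocols, a provider prepared stranded mRNA libraries. STAR, HTSeq, DESeq2 and the build hg19 are named, without versions or roles, per the submitters' processing notes. Which annotation, strand setting and filters were used is not given in the sources used here. In the table that the authors deposited, values are unnormalized counts of reads for each Ensembl identifier, 1 column per library. All 4 libraries were used, grouped by their titles.

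Symbols were found for 33626 of 48162 identifiers. Lengths, gene order and overlaps came from GENCODE release 29 (GRCh38), so no coordinate of the counts is given. Upstream sequences came from the RefSeq table, which held 7 of the 9 factors.

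Counts were tested with edgeR 4.0.16 in R 4.3.3 (glmQLFit, glmQLFTest) with TMM factors, the filterByExpr filter (minimum count 10) and no covariate beside the group. P-values are two-sided and adjusted by the Benjamini-Hochberg method over all 16106 tested genes. A fold change is overexpression over vector; standard errors were derived from the fold change and the F statistic. The steps were tested on simulated data. Folds against no read used 3 reads in each library; intervals cover counting error only. The 11 alternatives used DESeq2 1.42.0, limma-voom (limma 3.58.1), other scalings and filters, each library left out and the set letter as a block.

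The factors and gene lists were chosen with earlier results of these data known. Named were the 9 factors, EGFR-AS1, chromosome 14 and flanking genes, up to 4 list members with the smallest p or all called where they numbered 10 or fewer, and the 3 nearest genes by distance; not all are described. MIA2, LRR1, CHGB, SYP, NKX2-2, PAX2, PAX5, ITGA6, DSP and marker genes given by reads alone were named after their values were seen. ETV5 stands in the distal tip list and among the other lung factors. The list gene PECAM1 is not analysed here, and some genes that the rule names are not reported here.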

Additional observations from a re-analysis of the deposited data

How the results depend on the processing

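NKX2-1, PAX9 and SOX2 kept their direction and their call in all 11 alternatives. Their log2 fold changes ran from 4.42 to 5.19, from -9.48 (no read left in overexpression) to -6.21, and from 4.24 to 6.11. FOXA1 ran from -1.68 to -1.14 and lost its call without overexpression B (-1.40). GATA6 passed without the filter on low counts (0.77), in the fit with the set letter as a replicate block (0.79) and when vector A was left out (0.96), with a range of 0.56 to 0.98 on leaving out a library. The count of called genes was 1271 to 3522 on leaving out a library and 3467 with the replicate block, which changed no other call among the factors. The set letters are not stated to mark a shared batch; A minus B differences correlated at 0.169 between the groups across 16106 genes.

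The median after NKX2-1 ran from -0.90 to -0.70 on leaving out a library. List medians moved by more than the spread between libraries for liver and gut genes (0.46 to 0.73 on leaving out a library, 1.85 with a filter of 1 CPM), other lung factors (-0.34 to -0.19), cofactors and paralogs (-0.25 to -0.02), epithelial markers (-1.35 to -0.55) and fibroblast markers (0.67 with the filter of 1 CPM). Without overexpression A, 3 cofactors and paralogs and 1 fibroblast marker were called; this count was added after the data were seen. The cause of these shifts was not tested. With the filter of 1 CPM, SOX9 had no value. Levels of NKX2-8, FOXA2 and TP63 were limited by depth: 3 reads equal 0.0708 to 0.0952 CPM. The order of factors within a library does not depend on the scaling.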
